A study of Homo sapiens with 8 samples.

Results

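The genes described here are 44 genes of mitosis and the passage from G2 into M phase, chosen by name among the 43317 names that the arrays give to their probes. All 44 were found by that name, with 54 probes in all: 35 genes had 1 probe, 8 had 2 and MKI67 had 3. The genes were read on 8 arrays with 2 colours. On each array the Cy3 dye marked the RNA of mock cells, which the labels also describe as not transfected, and the Cy5 dye marked RNA of the same cell line transfected with 1 mature miRNA by Lipofectamine RNAiMAX. HCT116, a human colorectal cancer line, received either strand of miR-139 (miR-139-5p, miR-139-3p) or either strand of miR-143 (miR-143-5p, miR-143-3p). PANC-1, a human pancreatic cancer line, received miR-30c-5p or miR-30c-2-3p from miR-30c, or else miR-30a-5p or miR-30a-3p from miR-30a. Each miRNA was on 1 array and no array carried the dyes the other way round, so no value has a replicate error and a dye bias of a probe cannot be told apart from a response. No control miRNA was used on these arrays, so an effect of the transfection itself cannot be told apart from that of the miRNA.

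Entry into mitosis is driven by CDK1 bound to cyclin B, which CDC25 phosphatases switch on and which the anaphase-promoting complex switches off by destroying the cyclin. Aurora and Polo-like kinases, the kinetochore and the kinesins then build the spindle, and the spindle assembly checkpoint holds anaphase back until chromosomes are attached. Most of these genes are transcribed together in G2 under MuvB complexes and FOXM1, so their mRNA level in a culture also follows the share of cells in G2 and M. In bulk RNA, fewer cells in these phases and less mRNA per cell cannot be told apart.

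A miRNA pairs with mRNAs mainly through its seed. The mature sequences of the 8 miRNAs, from RefSeq (GRCh38.p14), are shown with the seed (bases 2 to 8) in capitals, because arrays of miRNAs with the same seed are compared further on.
miR-139-5p: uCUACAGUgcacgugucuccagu
miR-139-3p: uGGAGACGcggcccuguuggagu
miR-143-5p: gGUGCAGUgcugcaucucuggu
miR-143-3p: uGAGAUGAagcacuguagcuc
miR-30c-5p: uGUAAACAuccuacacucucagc
miR-30a-5p: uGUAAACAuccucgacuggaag
miR-30c-2-3p: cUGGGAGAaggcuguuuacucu
miR-30a-3p: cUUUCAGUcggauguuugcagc
The seed GUAAACA is that of miR-30a-5p and also of miR-30c-5p. The other 6 seeds differed from it and from each other.

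The scanner called 44.1% to 45.3% of Cy3 spots and 45.8% to 51.4% of Cy5 spots well above background. All 8 arrays were on 1 slide, with the lines in separate columns. The probe chosen for each of the 44 genes, the one with the highest signal, passed that call on every array in Cy3 and in Cy5. In mock RNA the epithelial markers EPCAM and CDH1 were higher in HCT116 than in PANC-1, by 4.43 and 3.03 on the log2 scale. The epithelial keratins differed less, with KRT8 at 0.46, KRT19 at 0.59 and KRT18 lower in HCT116, at -0.41. Of the mesenchymal markers VIM and ZEB1 were lower in HCT116, at -8.87 and -2.49. Of the colorectal markers CDX2 was well above background in both lines, at mock levels of 8.11 in HCT116 and 6.85 in PANC-1. LGALS4 was above it in PANC-1 but not in HCT116, and CDH17 and VIL1 in neither line. FN1 was above background in neither line. Of the markers that both lines should lack, COL1A2 and PECAM1 were not above background, and PTPRC was above it at mock levels of 5.96 in HCT116 and 5.95 in PANC-1, near the dimmest values. As a check of the labels, genes whose probe matched the seed of the miRNA used were lower in median log2 ratio than other genes on 7 arrays, with differences of -0.08 to -0.02. On the miR-143-3p-labelled array their median was 0.02 higher, a difference of the same size as the -0.02 after miR-139-3p. No spread was computed for differences this small, so the check could neither back nor refute any label. Because its difference alone lay above 0, that array is called the miR-143-3p-labelled array throughout.

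In each sentence that follows, a log2 ratio is transfected over mock on 1 array, so that -1 is a 2-fold lower level. A gene counted as lower at -1 or below and as higher at 1 or above, a size rule that stands in for a test. The share of all detected genes past the same limit is given beside the count of the 44 genes on each array. Of all detected genes, 44.2% to 48.8% were below 0 on any array.

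The lowest values for the 44 genes as a group were on the miR-143-3p-labelled array. All 44 were below 0, with a median of -0.78 and a middle range (lower to upper quartile) from -0.98 to -0.59, against a median of 0.01 over the 20107 genes detected. Of the 44, 10 were at least 2-fold lower, against 0.925% of all genes. None was 2-fold higher. The median was between -0.73 and -1.02 under the 6 other ways of processing. The count was between 8 for the median over probes, against 0.642% of all genes, and 22 against the mean of all 4 mock channels, where the share was 1.43%. By the scanner log ratio it was 20, against 4.98%.

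On the other 3 HCT116 arrays the medians were nearer 0. After miR-139-5p the median was -0.10, with 29 of the 44 below 0 and 0 at least 2-fold lower, against 0.201% of all genes, and it became 0.19 under median centring and 0.15 against the mean of all 4 mock channels. After miR-139-3p it was -0.27, with 32 below 0 and 3 at least 2-fold lower, against 2.82%, and it became 0.02 against the mean of all 4 mock channels. After miR-143-5p it was -0.23, with 35 below 0 and 0 at least 2-fold lower, against 1%. Its sign was the same under all 6 alternatives, from -0.04 under median centring to -0.50 against the mean of all 4 mock channels.

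In PANC-1 the arrays of miR-30a-5p and of miR-30c-5p, both guide strands, had similar values. The median was -0.39 after miR-30c-5p and -0.41 after miR-30a-5p, and all 44 genes were below 0 on both by the probes used. A second KIF23 probe was at 0.12 on both, and by the median over probes 43 genes were below 0 after miR-30c-5p. On each of these arrays, 2 genes were at least 2-fold lower, against 0.445% of all genes after miR-30c-5p and 0.263% after miR-30a-5p. Under median centring, where all detected genes had medians of 0.21 and 0.15 on these arrays, the 44 genes had medians of 0.11 and -0.04, or -0.10 and -0.19 relative to all genes, so the size of this shift depended on how the dyes were balanced. Under that setting 16 and 27 of the 44 were below 0.

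On the miR-30c-2-3p array the genes lay on both sides of 0. The median was 0.26, with 16 of 44 below 0 and a middle range from -0.16 to 0.63. Of the 44, 3 were at least 2-fold higher, against 1.71% of all genes, and 2 were at least 2-fold lower, against 4.14%, so the lower count was near the share of all genes. The higher genes numbered 7 under median centring and 5 by the scanner log ratio, settings for which no share of all genes was computed. These counts are therefore not read as a result about the 44. The median was above 0 under all 6 alternatives, from 0.21 to 0.60. After miR-30a-3p the median was 0.00 and 21 genes were below 0, with 1 at least 2-fold lower, against 1.1% of all genes. Under median centring that median became 0.69, or 0.39 relative to all genes, whose median was 0.30. The genes at least 2-fold higher then went from 0 to 9. The share of all genes was not computed for this count either, so it is not read as a result about the 44.

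**Figure D1:**
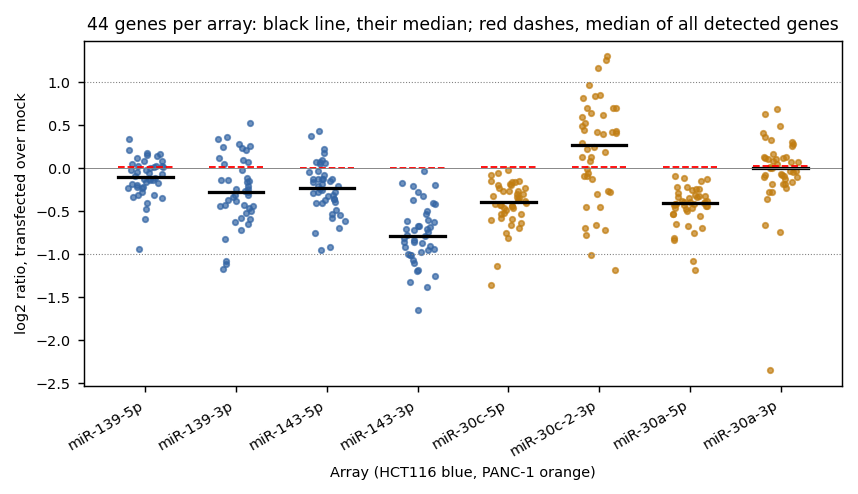
Log2 ratio of transfected over mock (y axis) of each of the 44 genes (points) on each of the 8 arrays (x axis), with dotted lines at -1 and 1, the median of the 44 as a black line and the median of all detected genes as red dashes. The points lie wholly below 0 on the miR-143-3p-labelled array and for both miR-30 guide strands (miR-30c-5p, miR-30a-5p), and 1 point (OIP5) lies at -2.35 after miR-30a-3p.

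The 4 mock channels of a line give the spread used here. Whether both mock channels of 1 precursor are the same RNA is not stated, so they may hold fewer than 4 separate samples. In HCT116 the mock levels of these genes differed between precursors. On the normalized log2 scale, 42 of the 44 were higher in the mock channels of the miR-139 arrays than in those of the miR-143 arrays, with a median difference of 0.58 against 0.01 over all genes, where 52.2% were above 0. Only CENPF was 2-fold apart, at 1.03. The pair of mock channels of 1 precursor differed by a median of no more than 0.05. In PANC-1 the same difference between the miR-30c and miR-30a mocks had a median of -0.03 over the 44, with none 2-fold apart, and the median range over 4 mock channels was 0.16 against 0.61 in HCT116. The SD of the genes' median level over the 4 mock channels was 0.33 in HCT116 and 0.06 in PANC-1. The medians of -0.10, -0.27 and -0.23 were smaller in size than the SD of HCT116, and that of -0.78 was larger. In PANC-1 the medians of -0.39, -0.41 and 0.26 were larger in size than the SD there, and that of 0.00 was smaller. The HCT116 SD holds the step between precursors, while each log2 ratio uses the mock of its own array. It is therefore not an error of those medians.

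Transfected levels were also set against all 4 mock levels of the line. On the miR-143-3p-labelled array all 44 genes lay below the lowest of these, against 32.8% of all detected genes. After miR-143-5p 35 of 44 did, against 32.5%. The mean mock level of the miR-143 arrays was below that of the miR-139 arrays for 42 of the 44. These counts therefore add little to those below 0, which were also 44 and 35. On the miR-139 arrays the same step makes it harder for a gene to lie below all 4 mock levels. In PANC-1 all 44 lay below after miR-30c-5p, against 29.8%, and 42 after miR-30a-5p, against 30.9%. After miR-30c-2-3p, 28 lay above the highest mock level, against 43.4%, and 14 below the lowest, against 36%, which was near the share of all genes. After miR-30a-3p 14 lay below, against 31.1%, and 18 above, against 38.7%. After miR-139-5p 5 lay below, against 24%, and 12 above, against 31.2%. After miR-139-3p 9 lay below, against 34.1%, and 12 above, against 39%.

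**Figure D2:**
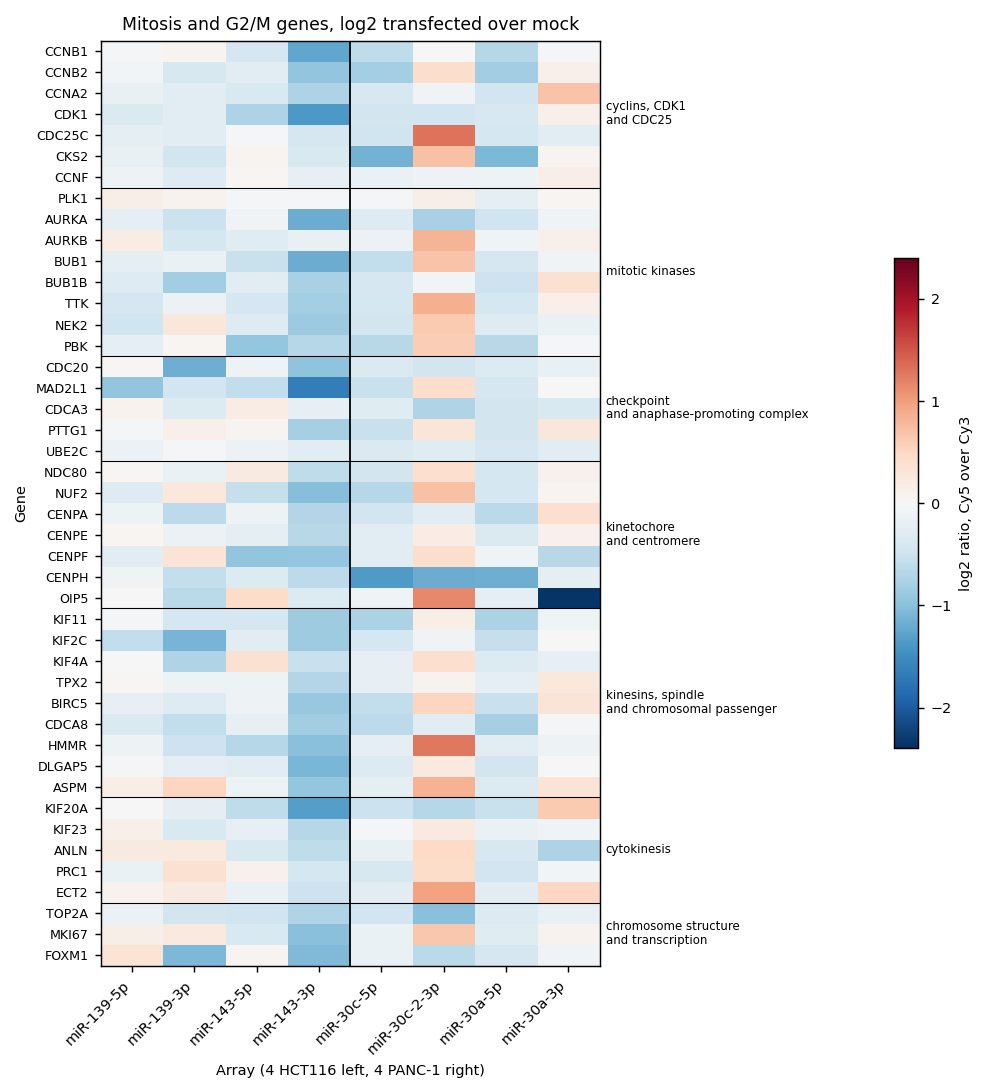
Log2 ratio of transfected over mock (colour, blue below 0 and red above) of the 44 genes (rows, by role) on the 4 HCT116 arrays and the 4 PANC-1 arrays (columns). The miR-143-3p-labelled array is blue throughout, with MAD2L1 darkest at -1.65, and OIP5 after miR-30a-3p is the darkest cell of all.

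Among the cyclins, CDK1 and its regulators, CDK1 itself, the kinase of mitotic entry, was one of the lowest on the miR-143-3p-labelled array. Its log2 ratio was -0.35 after miR-139-5p, -0.27 after miR-139-3p, -0.75 on the miR-143-5p array and -1.38 on the miR-143-3p-labelled array. In PANC-1 it was -0.43 after miR-30c-5p, -0.45 after miR-30c-2-3p, -0.38 after miR-30a-5p and 0.11 after miR-30a-3p. The levels behind the lowest value were 9.86 in mock and 8.47 in transfected cells. This probe was printed 10 times, and its spots on that array had an SD of 0.03. A second, dimmer CDK1 probe stayed between -0.14 and 0.00 on all 8 arrays, so the median over both probes was -0.76 there, short of the 2-fold limit.

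CCNB1, cyclin B1, the partner of CDK1, was at -0.02 after miR-139-5p, 0.07 after miR-139-3p, -0.41 on the miR-143-5p array and -1.25 on the miR-143-3p-labelled array. PANC-1 values were -0.60 after miR-30c-5p, -0.01 after miR-30c-2-3p, -0.69 after miR-30a-5p and -0.04 after miR-30a-3p. Its probes disagreed. The one used spans chr5:68471363-68473123 (hg19, plus strand), and a second lies downstream at chr5:68473872-68473931. After miR-139-3p the downstream probe was at -1.10 where the other was at 0.07, and after miR-30c-5p it was at -1.04 against -0.60. On the miR-143-3p-labelled array it was at -0.74 against -1.25, so both were below 0 there, and the median over probes was -0.997.

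CKS2, a small subunit that binds CDK1, stood out in PANC-1. It was at -1.14 after miR-30c-5p and -1.08 after miR-30a-5p, but at 0.70 after miR-30c-2-3p and 0.07 after miR-30a-3p. Its level was 12.05 in mock and 10.92 in transfected cells after miR-30c-5p, and 12.20 and 12.90 after miR-30c-2-3p. The low values became -0.56 and -0.61 under median centring, and that after miR-30a-5p was -0.999 against the mean of all 4 mock channels. CDC25C, the phosphatase that activates CDK1, was at 1.30 after miR-30c-2-3p and between -0.49 and -0.28 on the other PANC-1 arrays, with -0.49 after miR-30c-5p, -0.43 after miR-30a-5p and -0.28 after miR-30a-3p. It was the highest of the 44 on the miR-30c-2-3p array. The 7 genes of this role had medians of -0.74 on the miR-143-3p-labelled array, -0.49 after miR-30c-5p, -0.47 after miR-30a-5p and -0.01 after miR-30c-2-3p. CCNB2, the second B-type cyclin, was the third lowest gene on both miR-30 guide arrays, at -0.82 and -0.84, and CCNF, an F-box protein, was among the 3 highest after miR-30a-5p, at -0.13. CCNA2, cyclin A2, was the highest gene after miR-30a-3p, at 0.69, and its 10 spots had an SD of 0.07.

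The mitotic kinases were split after miR-30c-2-3p. Of the 8, 6 were above 0 there with a role median of 0.61, led by TTK, the checkpoint kinase MPS1, at 0.85, and AURKB, the kinase of the chromosomal passenger complex, at 0.82. AURKA, the centrosomal Aurora kinase, was at -0.78, the third lowest of the 44. BUB1, a checkpoint kinase of the kinetochore, was at -1.20 on the miR-143-3p-labelled array, -0.23 after miR-139-5p, -0.16 after miR-139-3p and -0.54 after miR-143-5p. AURKA was at -1.18 on the miR-143-3p-labelled array, -0.23 after miR-139-5p, -0.52 after miR-139-3p and -0.08 after miR-143-5p. Both were thus lowest of the HCT116 arrays on the same one. PLK1, the Polo-like kinase, stayed between -0.22 and 0.14 on all 8 arrays and was the highest of the 44 on the miR-143-3p-labelled array, at -0.04. Both PLK1 probes are listed under transcripts that the gene name reference used here did not hold. PBK, a mitotic MAP kinase kinase-like protein, was the second lowest gene after miR-143-5p, at -0.92, and NEK2, a centrosomal kinase, the third lowest after miR-139-5p, at -0.48. AURKB was among the 3 highest after miR-139-5p, at 0.17, on the miR-143-3p-labelled array, at -0.18, and after miR-30a-5p, at -0.11. After miR-30c-5p, where no gene was above 0, PLK1 at -0.05 and OIP5 at -0.08 were among the 3 highest. BUB1B, the checkpoint protein BUBR1, ranged from -0.83 after miR-139-3p to 0.37 after miR-30a-3p.

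MAD2L1, the checkpoint protein MAD2, was the lowest of the 44 on both the miR-139-5p array and the miR-143-3p-labelled array. Its log2 ratio was -0.94 after miR-139-5p, -0.46 after miR-139-3p, -0.58 on the miR-143-5p array and -1.65 on the miR-143-3p-labelled array. Mock levels were between 9.64 and 10.02, and transfected levels were 9.06, 9.56, 9.10 and 7.99 in the same order, all below the lowest mock level. CDC20, which activates the anaphase-promoting complex and is the protein that MAD2 holds back, had another pattern. It was at 0.02 after miR-139-5p, -1.17 after miR-139-3p, -0.12 on the miR-143-5p array and -0.97 on the miR-143-3p-labelled array, and it was the lowest of the 44 after miR-139-3p. UBE2C, the ubiquitin-conjugating enzyme of the anaphase-promoting complex, was below 0 on all 8 arrays but never beyond -0.39. CDCA3, a regulator of mitotic entry, was among the 3 highest on the miR-143-3p-labelled array, at -0.19. PTTG1, securin, ranged over the 8 arrays from -0.79 to 0.29.

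Of the kinetochore and centromere genes, CENPH, a subunit of the constitutive centromere network, was the lowest of the 44 on 3 of the 4 PANC-1 arrays. It was at -1.36 after miR-30c-5p, -1.18 after miR-30c-2-3p, -1.18 after miR-30a-5p and -0.23 after miR-30a-3p. Mock levels were 8.51 to 8.63, and transfected levels were 7.19, 7.45, 7.40 and 8.28 in that order, so 3 arrays lay well below every mock and the miR-30a-3p array close to them. The 10 spots of its probe had SDs of 0.05 to 0.07 on these arrays. Under median centring the values of both guide arrays were -0.97 and -0.90. In HCT116 its values were between -0.62 and -0.09.

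OIP5, a subunit of the complex that licenses loading of the centromeric histone CENPA, gave the lowest value of any of the 44 genes on any array. It was at -2.35 after miR-30a-3p, -0.08 after miR-30c-5p, 1.16 after miR-30c-2-3p and -0.22 after miR-30a-5p. Its mock levels were between 10.69 and 10.99, and its transfected levels were 8.37, 10.62, 12.14 and 10.47 in the same order. In HCT116 it was the highest of the 44 after miR-143-5p, at 0.43. NUF2, a subunit of the NDC80 complex that binds microtubules, was at -0.31 after miR-139-5p, 0.25 after miR-139-3p, -0.55 on the miR-143-5p array and -1.01 on the miR-143-3p-labelled array. NDC80 itself was among the 3 highest after miR-143-5p, at 0.22. CENPF, a large kinetochore protein, was the lowest gene after miR-143-5p, at -0.95, although its second probe was at -0.28. The same gene was the third lowest after miR-30a-3p, at -0.66, and the third highest after miR-139-3p, at 0.33, while it was the highest of the 44 after miR-30a-5p, at -0.09. CENPE, a kinetochore kinesin, ranged over the 8 arrays from -0.67 to 0.19, and CENPA from -0.70 to 0.41.

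The OIP5 probe holds a match to the miR-30a-3p seed, as do the probes of MAD2L1 and CKS2, which is 3 of the 54 probes, against 1.75% of the 43317 gene probes. Stretches of 30 bases of these probes are shown with the matched 7 bases in capitals (the complement of seed bases 2 to 8, or of bases 2 to 7 followed by A), because only one of these genes was low on that array. The positions are chr15:41601595-41601624 for OIP5 and chr4:120981376-120981405 for MAD2L1, both on the minus strand, and chr9:91931553-91931582 for CKS2 on the plus strand (hg19). Which part of each transcript this is was not annotated here.
OIP5: tggttggtCTGAAAAtagagttgggcttaa
MAD2L1: tgtacCTGAAAAatgggaagagtcgggacc
CKS2: taagtgcctgtttgagtttACTGAAAcagt
On the miR-30a-3p array OIP5 was at -2.35, MAD2L1 at 0.02 and CKS2 at 0.07. A match in a probe is a match of letters, not a shown site. The probes of PBK and BIRC5 held miR-143-3p seed matches, and these genes were at -0.68 and -0.90 on the miR-143-3p-labelled array, on either side of the median of -0.78. No probe of the 44 genes held a match to the other 6 miRNAs.

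The kinesins, spindle and chromosomal passenger genes had the lowest role median on the miR-143-3p-labelled array after the small group of TOP2A, MKI67 and FOXM1, at -0.85 over 9 genes. DLGAP5, which stabilizes kinetochore microtubules, was at -0.06 after miR-139-5p, -0.24 after miR-139-3p, -0.28 on the miR-143-5p array and -1.10 on the miR-143-3p-labelled array. KIF2C, a kinesin that takes microtubules apart, was at -0.59 after miR-139-5p, -1.11 after miR-139-3p, -0.28 on the miR-143-5p array and -0.85 on the miR-143-3p-labelled array. KIF2C was second lowest of the 44 on both miR-139 arrays, and its value after miR-139-3p was -0.77 against the mean of all 4 mock channels.

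HMMR, a spindle protein also known as a hyaluronan receptor, went 2-fold in both directions. It was at -0.12 after miR-139-5p, -0.50 after miR-139-3p, -0.69 on the miR-143-5p array and -1.01 on the miR-143-3p-labelled array. In PANC-1 it was at -0.23 after miR-30c-5p, 1.26 after miR-30c-2-3p, -0.25 after miR-30a-5p and -0.12 after miR-30a-3p. Its 4 PANC-1 mock levels were 10.34 to 10.38 and its transfected level after miR-30c-2-3p was 11.60, while the other transfected levels were 10.12 to 10.26. ASPM, a spindle pole protein, was the highest of the 44 after miR-139-3p, at 0.52. KIF4A, a chromosome-bound kinesin, was among the 3 highest after miR-143-5p, at 0.37. KIF11, the kinesin that pushes spindle poles apart, ranged from -0.85 to 0.13 over the 8 arrays, and TPX2 from -0.71 to 0.26.

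Among the cytokinesis genes KIF20A, a kinesin of the midzone, was at 0.01 after miR-139-5p, -0.21 after miR-139-3p, -0.61 on the miR-143-5p array and -1.32 on the miR-143-3p-labelled array, the third lowest there. PANC-1 values were -0.69 after miR-30c-2-3p and 0.63 after miR-30a-3p. The 4 other genes of its role were all above 0 after miR-30c-2-3p, between 0.24 and 0.97. ECT2, which activates RhoA at the cleavage furrow, was at 0.97 after miR-30c-2-3p and 0.49 after miR-30a-3p, the third highest there. ANLN, a scaffold of the contractile ring, was second lowest after miR-30a-3p, at -0.74, and second highest after miR-139-5p, at 0.21. PRC1, the microtubule bundler of the midzone, was second highest after miR-139-3p, at 0.36, and KIF23, a partner kinesin, was the highest after miR-30c-5p, at -0.02.

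FOXM1, the transcription factor of G2 and M genes, was lower on 2 HCT116 arrays. It was at 0.34 after miR-139-5p, -1.08 after miR-139-3p, 0.07 on the miR-143-5p array and -1.06 on the miR-143-3p-labelled array. Its mock levels were 9.14 and 9.20 on the miR-139 arrays and 8.27 and 8.22 on the miR-143 arrays, and its transfected levels were 9.48, 8.12, 8.34 and 7.16. Against the mean of all 4 mock channels its value after miR-139-3p was -0.59, short of the 2-fold limit. FOXM1 was the highest of the 44 after miR-139-5p and the third lowest after miR-139-3p. In PANC-1 it was at -0.17 after miR-30c-5p, -0.66 after miR-30c-2-3p, -0.40 after miR-30a-5p and -0.08 after miR-30a-3p.

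TOP2A, the topoisomerase that separates sister chromatids, was at -0.13 after miR-139-5p, -0.43 after miR-139-3p, -0.49 on the miR-143-5p array and -0.72 on the miR-143-3p-labelled array. PANC-1 values were -0.46 after miR-30c-5p, -1.01 after miR-30c-2-3p, -0.33 after miR-30a-5p and -0.19 after miR-30a-3p. Its value after miR-30c-2-3p was -0.82 under median centring and -0.88 against the mean of all 4 mock channels. TOP2A was below 0 on all 8 arrays, as were AURKA, CENPH, CDCA8 and UBE2C.

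MKI67, the chromosome coat protein Ki-67 used as a marker of cycling cells, was at 0.15 after miR-139-5p, 0.24 after miR-139-3p, -0.36 on the miR-143-5p array and -0.996 on the miR-143-3p-labelled array, just short of the limit. In PANC-1 it was at -0.16 after miR-30c-5p, 0.64 after miR-30c-2-3p, -0.29 after miR-30a-5p and 0.09 after miR-30a-3p. Its 3 probes all lay below 0 on the miR-143-3p-labelled array, at -0.996, -0.77 and -0.50. After miR-139-3p they disagreed, at 0.24, 0.37 and -0.68.

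**Figure D3:**
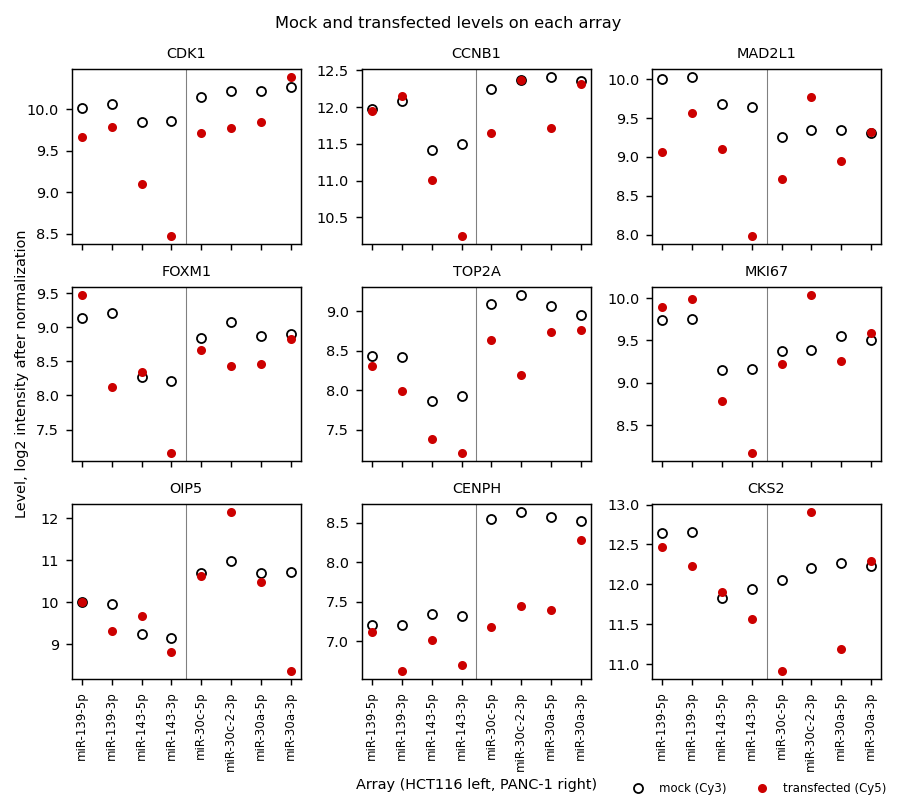
Normalized log2 intensity (y axis of each panel) of 9 genes in mock (open circles, Cy3) and transfected (red, Cy5) RNA on each of the 8 arrays (x axis, HCT116 left of the line). FOXM1 mock levels step down from 9.14 and 9.20 on the miR-139 arrays to 8.27 and 8.22 on the miR-143 arrays, and OIP5 lies at 8.37 against a mock level of 10.72 on the miR-30a-3p array.

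Over all 8 arrays, 16 of the 44 genes were at least 2-fold lower on at least 1 array, 3 were at least 2-fold higher on 1 array, and 27 were never 2-fold from mock. Of the 17404 genes detected on every array the shares were 9.96%, 5.51% and 85.2%. CENPH was lower on 3 arrays, and FOXM1 and CKS2 on 2 each. HMMR and OIP5 were among both the lower and the higher genes.

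To compare the strands of each precursor, the guide array was subtracted from the passenger array, which removes a dye bias common to both. After miR-139 the passenger strand (3p) gave lower values, with a median difference of -0.18 and 28 of 44 genes below 0. CDC20 at -1.20 and FOXM1 at -1.42 were at least 2-fold lower, against 3.23% of all genes. After miR-143, where the guide is the 3p strand, the passenger (5p) was higher than the miR-143-3p-labelled array by a median of 0.54, and 3 genes were at least 2-fold higher, against 1.05%: FOXM1 at 1.13, AURKA at 1.10 and MAD2L1 at 1.07.

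After miR-30c the passenger strand was higher by a median of 0.63, and 13 genes were at least 2-fold higher, against 2.32%. CKS2 differed most, by 1.84, then CDC25C by 1.78 and HMMR by 1.49. TOP2A was lowest, at -0.55. After miR-30a the passenger strand was higher by a median of 0.45. KIF20A at 1.17, CCNA2 at 1.16, CKS2 at 1.15 and CENPA at 1.06 were at least 2-fold higher, against 1.1%, and OIP5 at -2.13 was the only gene 2-fold lower, against 1.95%. The 4 median differences had the same sign under all 6 alternatives.

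**Figure D4:**
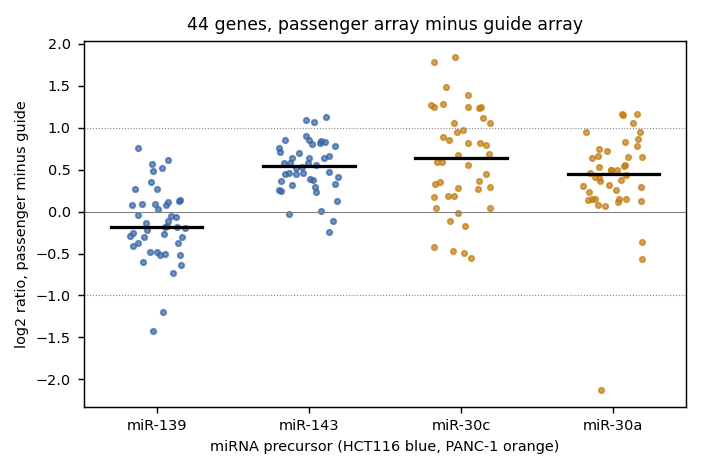
Difference in log2 ratio, passenger array minus guide array (y axis), of the 44 genes (points) for each precursor (x axis), with the median as a black line and dotted lines at -1 and 1. The median is -0.18 for miR-139 and 0.54 for miR-143 in HCT116. In PANC-1 it is 0.63 (miR-30c) and 0.45 (miR-30a), and OIP5 lies apart at -2.13 for miR-30a.

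The arrays of both miR-30 guide strands, whose miRNAs share the seed printed above, can also be set side by side gene by gene, although both compare with PANC-1 mocks. The difference between them (miR-30c-5p minus miR-30a-5p) had a median of 0.02 and a median absolute size of 0.09. It was within 0.5 for all 44 genes, but also for 99.4% of all genes, and among the 44 it was largest for NUF2, at -0.27.

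In mock RNA only 5 of the 44 genes were higher in HCT116 than in PANC-1. The difference (HCT116 minus PANC-1) had a median of -0.60 against 0.03 over all genes. Its HCT116 side is a mean over mocks of both precursors, which themselves differed by a median of 0.58 for these genes. The size of the line difference therefore depends on which HCT116 mocks are used. For 28 genes every HCT116 mock level was below every PANC-1 mock level, and for 2 it was above, against 28.1% and 33.2% of all genes. The difference was lowest for TPX2, a spindle assembly factor, at -1.37, and highest for PBK, at 1.05. Line and slide column cannot be told apart.

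For many genes of this class the promoter holds a CHR element, bound by MuvB complexes, and CCAAT boxes, bound by NF-Y. RefSeq promoter windows (GRCh38.p14, 250 bases before to 50 after a start) were matched for 36 of the 44 genes, in 43 windows. The letters TTTGAA, on either strand, were in 29 of the 43 windows, or 67.4%, against 15.2% of all 35116 windows. The letters CCAAT, on either strand, were found at least 2 times in 22 of the 43, or 51.2%, against 10.8%. The 2 motifs were searched separately.
The 130 bases before the start are shown for 3 genes, with the letters of both motifs in capitals. All 3 were below 0 on both miR-30 guide arrays, as were all 44 genes by the probes used. They were above 0 after miR-30c-2-3p, where 16 of the 44 were below 0, and differed in size. Whether either motif goes with these values was not tested. TOP2A, whose window also held TTTGAA, was at -1.01 after miR-30c-2-3p, and BUB1, whose window did not, at 0.69. After miR-30c-5p, miR-30a-5p and miR-30c-2-3p, CCNB2 was at -0.82, -0.84 and 0.43. In the same order HMMR was at -0.23, -0.25 and 1.26, and CKS2 at -1.14, -1.08 and 0.70. They lie at chr15:59105016-59105145 for CCNB2, chr5:163460502-163460631 for HMMR, chr9:89311065-89311194 for CKS2, all on the plus strand.
CCNB2: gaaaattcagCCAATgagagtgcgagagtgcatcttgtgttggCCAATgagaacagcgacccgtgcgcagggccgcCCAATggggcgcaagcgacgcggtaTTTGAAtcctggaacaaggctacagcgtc
HMMR: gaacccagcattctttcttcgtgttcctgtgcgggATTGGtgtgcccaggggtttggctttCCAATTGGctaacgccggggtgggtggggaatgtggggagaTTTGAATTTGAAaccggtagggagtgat
CKS2: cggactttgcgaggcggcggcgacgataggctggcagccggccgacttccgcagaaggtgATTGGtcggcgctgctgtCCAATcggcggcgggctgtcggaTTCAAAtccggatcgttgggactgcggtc
All 3 hold TTTGAA, on one strand or the other, starting at positions from -29 to -22 relative to the start site, and CCAAT farther upstream, 3 times for CCNB2 and HMMR (a pair overlapping in HMMR) and 2 times for CKS2. A match is a description of letters and not a shown site.

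Genes of the same processes outside the 44 were read from 4 lists, whose counts of lower genes compare with the shares of all genes given above for each array. The share of all genes at least 2-fold higher ran from 0.0587% after miR-139-5p to 2.11% after miR-139-3p. The first held 67 other kinetochore, spindle and condensin genes, of which 66 or 67 were detected on each array. Its median was -0.31 on the miR-143-3p-labelled array, with 3 genes at least 2-fold lower and NCAPD2, a condensin subunit, lowest at -1.28, and PMF1 highest at 0.40. It was nearer 0 than the median of the 44 genes there. After miR-139-3p it was -0.35, with 6 genes lower, CENPM lowest at -1.52 and SKA2 highest at 0.76. After miR-139-5p it was 0.01 (SPC24 lowest at -0.42, MAD2L2 highest at 0.64), and after miR-143-5p it was -0.14 (CIT at -0.83, SKA2 at 0.62), with 0 genes 2-fold from mock on either. In PANC-1 it was -0.21 after miR-30c-5p (KIF15 at -0.82, TUBA1C at 0.27) and -0.24 after miR-30a-5p (CENPN at -0.66, MAD1L1 at 0.24). After miR-30c-2-3p it was 0.20, with 1 gene lower, the tubulin TUBB4B at -1.45, and 1 higher, CENPQ at 1.29. After miR-30a-3p it was -0.09 (CENPU at -0.82, CENPQ at 0.78).

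The second list held 51 other genes listed here as G2/M regulators, all detected on every array. Whether each of them, CDCA7 included, peaks in G2 or M was not checked. Its median was -0.42 on the miR-143-3p-labelled array, with 2 genes lower, CDCA7 lowest at -1.63 and LIN37, a MuvB subunit, highest at 0.86. After miR-139-3p it was -0.27, with 5 lower and 1 higher, again CDCA7 lowest at -1.94 and LIN37 highest at 1.04. After miR-143-5p it was -0.05, with LIN37 highest at 0.65, and after miR-139-5p it was 0.08 (LIN9 at -0.45, CDC25A at 0.59). WEE1, the kinase that keeps CDK1 inactive, was the highest gene of this list on 3 PANC-1 arrays, at 1.32 after miR-30c-5p, 1.29 after miR-30a-5p and 1.65 after miR-30c-2-3p. The list medians there were -0.11, -0.16 and 0.37, with TROAP lowest on the guide arrays at -0.61 and -0.74, and CDCA7 lowest after miR-30c-2-3p at -2.08. The genes at least 2-fold higher numbered 2, 1 and 4 on these arrays, and those lower 0, 0 and 4. After miR-30a-3p the median was 0.14, with 1 gene lower, LMNB1 at -1.24, and PARPBP highest at 0.85.

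The third list held 39 genes of DNA replication and S phase, all detected. After miR-139-3p its median was -0.80, with 14 genes lower, against -0.27 and 3 for the 44 mitosis genes. MCM2, a subunit of the replicative helicase, was lowest at -2.25 and PCNA highest at 0.05. On the miR-143-3p-labelled array the order of these medians was the other way round, at -0.55 with 5 lower (MCM6 at -1.52, GINS1 highest at 0.26) against -0.78 with 10. After miR-143-5p it was -0.28, with 4 lower (MCM7 at -1.63, CCNE1 highest at 0.56), and after miR-139-5p it was -0.03 (CHAF1B at -0.57, RRM2 at 0.38). After miR-30c-2-3p it was -0.21, with 5 lower and 2 higher (CDC45 at -2.56, RFC5 at 1.37), where the mitosis genes had 0.26. On the guide arrays it was -0.06 after miR-30c-5p (RRM2 at -0.74, CCNE1 at 1.20) and -0.07 after miR-30a-5p (RRM2 at -0.97, CCNE1 at 0.92), and after miR-30a-3p it was -0.11, with 3 lower (UNG at -2.16, CCNE1 at 0.72). The differences between lists were not tested.

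The fourth list held 12 genes that p53 activates, among them inhibitors of the cell cycle. After miR-139-3p its median was 1.19, with 6 genes higher, TP53INP1 highest at 3.24 and BAX lowest at 0.02. On the miR-143-3p-labelled array it was 0.51, with 2 higher (TP53INP1 at 1.41, RRM2B lowest at -0.42). CDKN1A, the CDK inhibitor p21, was at 1.65 after miR-139-3p and 1.35 on the miR-143-3p-labelled array. It was the highest of the list on the miR-143-5p array, at 1.16, where TP53INP1 was lowest at -0.86 and the median was -0.02, and after miR-139-5p the median was -0.02 as well (FDXR at -0.50, MDM2 at 0.18). In PANC-1 the medians were 0.23 after miR-30c-5p (RRM2B at -0.35, GADD45A at 1.24) and 0.09 after miR-30c-2-3p (BAX at -0.98, TP53INP1 at 0.87). They were 0.18 after miR-30a-5p (RRM2B at -0.25, BTG2 at 0.77) and -0.09 after miR-30a-3p (SFN at -0.36, FDXR at 0.96). The state of p53 in either line was not tested, and line and miRNA cannot be told apart.

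**Figure D5:**
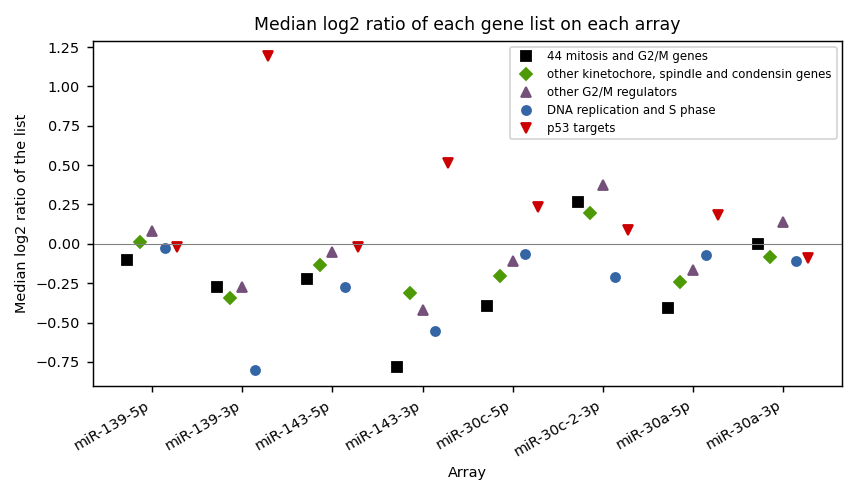
Median log2 ratio of transfected over mock (y axis) on each array (x axis) for the 44 mitosis and G2/M genes (black squares) and the 4 other lists (coloured symbols). The 44 genes have the lowest of the 5 medians on the miR-143-3p-labelled array, at -0.78, and the replication genes on the miR-139-3p array, at -0.80, where the p53 targets are at 1.19.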

How the data were processed

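RNA of mock cells (Cy3) and of cells transfected with 1 miRNA (Cy5) was hybridised to 8 Agilent arrays with 2 colours, 1 array per miRNA. Per the file headers, Feature Extraction 11.5.1.1 gave spot and background intensity, and the deposited log10 ratio of processed Cy5 over Cy3, which the software had corrected for background and dye. The authors' table holds the same log10 values. The labels gave each sample's group, and 0 columns had no sample.

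Spot intensities went through limma 3.58.1 in R 4.3.3: normexp background correction with an offset of 50, removal of control spots, and loess within arrays. The spots of a probe were then averaged without outlier spots, which had taken part in the normalization. From the deposited intensities came log2 ratios and, after quantile normalization of mean signals between arrays, log2 channel levels. Each gene took the values of its brightest probe (mean over the arrays), and counted as detected where at least 50% of that probe's spots were well above background in at least 1 channel. The normalization was also tested on simulated data. Tables were made in Python 3.11.15 with pandas 2.3.3.

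With 1 array per miRNA, no test was possible. The precision is limited by the number of arrays. Spots of probes printed 10 times give only the spread within 1 hybridisation. The alternatives were no background correction, the scanner log ratio, median centring in place of loess, no filter on dim probes, the median over probes, and the mean of all 4 mock channels of the line. Genes named with values on every array of a line were those 2-fold from mock on any array of it, with CCNB1, CDK1, FOXM1, MKI67 and TOP2A, and on each array the 3 lowest and 3 highest, and the lowest and highest of each other list. The lowest gene of 1 list on 1 array is not reported here. The values and ranges of other members were given in addition. The members and lists were chosen with earlier results of these data known, so no list is independent evidence. The strand called the guide follows the study. Probe positions are those of the files (hg19).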

Additional observations from a re-analysis of the deposited data

How the results depend on the processing

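Of 120 comparisons of a median, count or strand difference with its value under one of 6 other ways of processing, 99 stayed, 20 moved and 1 reversed. A median or strand difference stayed when it moved by less than the SD of the genes' median level over the 4 mock channels of the line, and a count when it was within 1.5 times. The SD is large in HCT116, so the changes of sign there after miR-139-5p and miR-139-3p count as unmoved. The cause of a move was not tested. Under median centring the median after miR-30c-5p reversed to 0.11, and the medians were 0.60 after miR-30c-2-3p, -0.038 after miR-30a-5p and 0.69 after miR-30a-3p. The lower genes then numbered 0 after miR-30c-5p, 1 after miR-30c-2-3p and 0 after miR-30a-5p, against 0.115%, 2.77% and 0.105% of all genes. The higher genes numbered 7 after miR-30c-2-3p and 9 after miR-30a-3p, for which no share of all genes was computed. The strand differences under this setting were 0.39 for miR-30c and 0.78 for miR-30a. Against the mean of all 4 mock channels the median after miR-30c-5p was -0.47, and the strand differences were 0.70 for miR-30c and 0.52 for miR-30a. With that reference the lower genes numbered 22 on the miR-143-3p-labelled array, against 1.43% of all genes, and 3 after miR-143-5p, against 1.08%. They numbered 1 after each of miR-139-3p (2.86% of all genes), miR-30c-2-3p (3.83%) and miR-30a-5p (0.329%). By the scanner log ratio the median after miR-30c-5p was -0.45 and 20 genes were lower on the miR-143-3p-labelled array, against 4.98% of all genes. Without background correction 16 were lower there, against 1.69%, and 1 after miR-139-5p, against 0.382%. No result moved without the filter on dim probes, because the probes used for all 44 genes were above background on every array. The 20 comparisons with that setting were therefore bound to stay, as were 352 of those of single genes. The median over probes could change nothing for the 35 genes with 1 probe. The totals given here include these. Of 2112 comparisons of single genes on single arrays, 1688 stayed and 424 moved, with 198 of these moves under median centring. The 23 values that were 2-fold from mock kept their direction in all 138 comparisons and their side of the limit in 127. No paired analysis was possible because each miRNA was on 1 array. No result could be given without a replicate for the same reason. CDC25C, at a transfected level of 6.42 on the miR-143-3p-labelled array, went from -0.41 to -0.96 there by the scanner log ratio.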
